A study of Mus musculus with 12 samples.

Results

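The mitosis and spindle genes are 46 named genes whose products drive a dividing cell from the G2 phase through chromosome separation to the splitting of its cytoplasm. They were taken by gene symbol from the authors' table of adrenal transcripts, which lists 24421 genes, and all 46 were found in it. PolyA-selected RNA of whole adrenal glands was sequenced in 12 libraries. Of these, 4 came from Abcg1 cKO mice, which carry Cre recombinase and a pair of conditional Abcg1 alleles, 4 from Abca1 cKO mice, which carry Cre and a pair of conditional Abca1 alleles, and 4 from controls, described in the labels as carrying only Cre. Per the study's methods, littermates with Cre or with 1 of the conditional alleles could serve as controls, the mice were females aged 2 months unless otherwise specified, and their genetic background was mixed. In mice that carried Cre, it was driven by the aldosterone synthase gene Cyp11b2. Conditional alleles are therefore recombined in cortical cells that express, or descend from cells that expressed, this zona glomerulosa enzyme. Medulla, vessels, capsule and blood cells of the same gland keep their alleles.

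Values are the authors' mean normalized counts, that is, gene counts divided by a size factor per library and averaged over the libraries of a group. The table names 2 such means, Abcg1 cKO and a combined group of the 8 control and Abca1 cKO libraries. The table also has a column per library, but these headings could be tied to no sample and the columns were left out. The deposited fold changes, errors and p-values of the authors' own comparison were set aside as well. The values below therefore come without an SD, a test or a raw depth, and whether 1 library sets a mean was not tested. Control and Abca1 cKO cannot be told apart in the combined mean. A log2 ratio is always that of Abcg1 cKO over the combined group after adding 1 to both means, so negative values are lower in Abcg1 cKO adrenals. The mean of Abcg1 itself, counted over the whole gene although Cre removes a single exon, was 249.7 in Abcg1 cKO adrenals against 305 in the combined group, and that of Abca1 was 10057 and 7791. Because Abca1 cKO libraries are part of the combined group, the Abca1 difference cannot be told apart from the deletion of Abca1 in them. Steroidogenic cortex markers were abundant in both groups, with Star, the carrier of cholesterol into mitochondria, at 507891 in Abcg1 cKO and 374521 otherwise.

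Cells about to divide switch on most of these genes together, late in the cycle, and lose most of their transcripts after division. FOXM1 and B-MYB, the product of Mybl2, are transcription factors that act on their promoters with the MuvB complex. CDK1 bound to cyclin A or B then starts mitosis, kinesins and other microtubule proteins build the spindle, kinetochores attach chromosomes to it under the watch of the checkpoint kinases, and the anaphase-promoting complex (APC/C) ends mitosis by marking securin and cyclins for destruction. In the adult adrenal cortex, dividing cells lie mostly in the outer cortex, beneath the capsule, and their descendants move inward. In RNA of a whole gland, fewer dividing cells and less mitotic RNA per dividing cell cannot be told apart.

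Many promoters of such genes share short letters near the start of transcription, which are shown here because the members all differed in the same direction. The cell cycle genes homology region (CHR), to which MuvB binds, reads TTTGAA or TTTAAA, and the CCAAT box, bound by NF-Y, reads CCAAT. RefSeq windows of GRCm38.p6, running from 250 bases before a start to 50 bases after it, were given for 40 of the 46 members, in 42 windows. The other 6 members are Aurkb, Ccna2, Foxm1, Incenp, Kif20a and Tpx2. The stretches below run 5′ to 3′ from 100 bases before the start to 20 bases after it, and belong to the 8 members with the lowest log2 ratios among those with a window. Capitals mark the CHR letters and the CCAAT letters in either orientation.
Cenpf (chr1:189688067-189688186, minus strand): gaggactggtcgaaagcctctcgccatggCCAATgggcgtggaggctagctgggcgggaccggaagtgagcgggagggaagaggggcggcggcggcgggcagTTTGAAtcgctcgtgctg
Kif18b (chr11:102925105-102925224, minus strand): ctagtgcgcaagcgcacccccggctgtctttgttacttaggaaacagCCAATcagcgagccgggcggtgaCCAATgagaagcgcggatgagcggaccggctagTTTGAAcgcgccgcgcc
Aspm (chr1:139454673-139454792, plus strand): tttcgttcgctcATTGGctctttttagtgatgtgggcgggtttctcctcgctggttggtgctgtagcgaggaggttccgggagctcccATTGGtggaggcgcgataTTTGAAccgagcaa
Nusap1 (chr2:119618198-119618317, plus strand): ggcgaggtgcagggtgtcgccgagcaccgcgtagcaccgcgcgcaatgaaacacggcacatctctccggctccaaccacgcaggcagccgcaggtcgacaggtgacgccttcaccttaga
Ccnb1 (chr13:100786467-100786586, minus strand): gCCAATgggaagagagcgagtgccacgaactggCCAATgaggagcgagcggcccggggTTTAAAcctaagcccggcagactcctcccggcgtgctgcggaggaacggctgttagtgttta
Racgap1 (chr15:99651637-99651756, minus strand): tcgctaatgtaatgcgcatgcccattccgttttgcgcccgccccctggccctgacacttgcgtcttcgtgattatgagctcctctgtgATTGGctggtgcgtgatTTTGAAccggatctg
Ccnb2 (chr9:70421535-70421654, minus strand): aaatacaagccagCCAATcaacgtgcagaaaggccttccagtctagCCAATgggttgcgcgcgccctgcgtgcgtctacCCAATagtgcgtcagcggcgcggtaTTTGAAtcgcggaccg
Hmmr (chr11:40733418-40733537, minus strand): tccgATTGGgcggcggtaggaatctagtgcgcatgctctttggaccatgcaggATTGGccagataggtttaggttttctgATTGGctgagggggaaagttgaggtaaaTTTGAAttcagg

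For comparison, the members with a window whose log2 ratios lay nearest to 0 read as follows. Smc2 has the CHR letters outside the stretch shown, and the capitals at the end of Cdca8 run into another CCAAT box that the stretch does not hold whole.
Smc2 (chr4:52439121-52439240, plus strand): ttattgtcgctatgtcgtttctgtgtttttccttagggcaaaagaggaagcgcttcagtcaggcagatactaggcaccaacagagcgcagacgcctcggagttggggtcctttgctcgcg
Mybl2 (chr2:163054535-163054654, plus strand): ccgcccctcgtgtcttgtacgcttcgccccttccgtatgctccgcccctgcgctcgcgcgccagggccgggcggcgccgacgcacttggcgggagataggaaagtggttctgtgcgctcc
Cdca8 (chr4:124936898-124937017, minus strand): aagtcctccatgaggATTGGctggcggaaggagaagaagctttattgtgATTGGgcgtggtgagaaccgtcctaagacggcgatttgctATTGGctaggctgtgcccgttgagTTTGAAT

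All 8 of the first set but Nusap1 hold CHR letters within the stretch, and each of these 7 also holds at least 1 CCAAT box. Over the members, 35 of 42 windows (83.3%) held TTTGAA or TTTAAA on either strand, against 27.6% of all 32851 windows and 19.3% of the 13772 windows of genes with a mean of 10 or more. TTTGAA alone was in 76.2% of member windows and 17.9% of all windows, and TTTAAA, which reads the same on both strands, was in 23.8% and 13.2%. Counting only letters that begin between 60 bases before and 40 bases after the start, a range set after the hits were seen, the CHR letters were in 31 of 42 member windows (73.8%) and 8.83% of all windows. CCAAT was in 73.8% of member windows and 37.4% of all windows, and windows with both kinds of letters made up 71.4% and 10.7%. CCAAT was also in 41 of 58 windows of a further list of mitosis genes, in 21 of 35 windows of DNA replication genes, in 9 of 15 windows of CDK inhibitors and brakes, and in 16 of 29 windows of chromosome and APC/C genes that cells use at all times.

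The forkhead letters TAAACA, which can share bases with TTTAAA, were in 6 of 42 member windows (14.3%) and 13.4% of all windows. The E2F letters TTTCGCGC or TTTGGCGC were in 2 member windows (4.76%) and 0.813% of all windows. Among windows of genes with a mean of 10 or more, the forkhead letters were in 8.71% and the E2F letters in 1.43%. Windows of DNA replication genes held E2F letters in 10 of 35 (28.6%) and CHR letters in 8 of 35 (22.9%). Windows of the further mitosis genes held CHR letters in 35 of 58 (60.3%), and windows of the constantly used chromosome and APC/C genes held them in 6 of 29 (20.7%). Within the members, log2 ratios overlapped between genes with and without the letters. The 29 genes with CHR letters near the start had a median of -0.76, from -1.16 to -0.25, and the 11 without had a median of -0.83, from -1.01 to -0.30. A match of letters is a description and not evidence of binding.

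Every one of the 46 genes had a lower mean in Abcg1 cKO adrenals. The summed means were 3558 in Abcg1 cKO adrenals against 6028 in the combined group, which is 59.0%, and the median log2 ratio was -0.78, with quartiles of -0.94 and -0.67. Of the members, 44 were lower by more than 1.2-fold, against 11.7% of the other 14238 genes with a mean of 10 or more over both groups, and none was higher by that much, against 10.6% of them. At 1.5-fold 37 were lower, against 2.85% of the others, and at 2-fold Foxm1, Cenpf, Kif18b, Aspm and Nusap1 were, which makes 5 against 0.773%. The count at 2-fold depended on the 1 added to both means. It was 9 with nothing added, 8 with 0.1 and 2 with 10. All members had a mean between 20 and 700. Among the other 7860 genes in that range, chosen after the values were seen, 16.1% were lower by more than 1.2-fold and 0.725% by more than 2-fold. The median log2 ratio of all genes with a mean of 10 or more was 0.0021, and 42 of the members lay among the lowest 5% of these genes. The members were listed with results of these data known, so these counts describe them and are not a test.

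**Figure D1:**
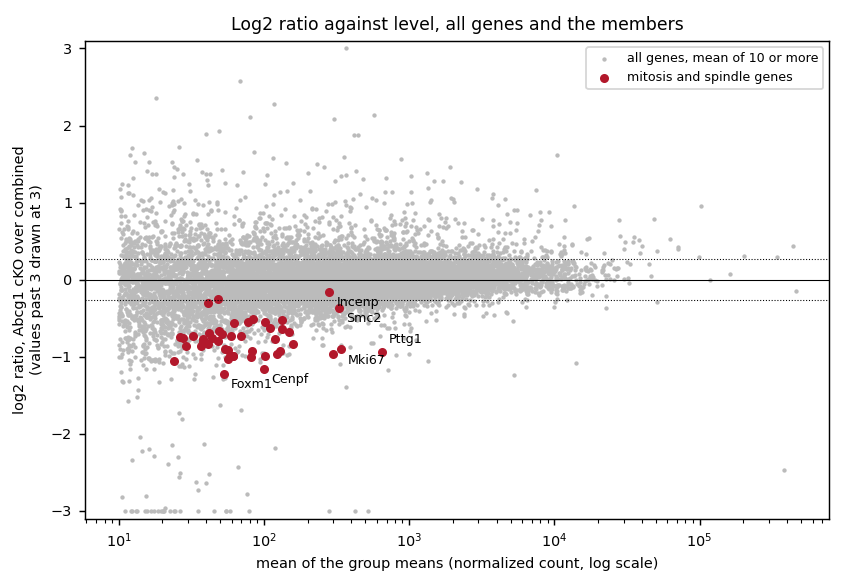
Log2 ratio of the group means (Abcg1 cKO over the combined group, y axis, values past 3 drawn at 3) against the mean of both groups in normalized counts (x axis, log scale). Grey points are the 14284 genes with a mean of 10 or more, red points the 46 mitosis and spindle genes, and dotted lines mark a 1.2-fold ratio. All red points lie below 0, from -1.22 for Foxm1 to -0.16 for Incenp.

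Members lie on 16 chromosomes, with 9 on chromosome 2. In the combined group the lowest, median and highest means were 33.0, 79.5 and 854, and in Abcg1 cKO they were 15.4, 44.1 and 445. Across the members, log2 ratio and level were almost unrelated (Spearman's rho 0.044 over 46 genes, which share the same libraries). Per kilobase of exon in GENCODE, Pttg1 had by far the highest combined level, at 427 normalized counts per kilobase, followed by Incenp at 68.6, Smc2 at 67.2 and Cdc20 at 58.1, while the median member was at 17.7 and Kif15 was lowest at 3.06. The exon lengths are not necessarily those used for counting.

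**Figure D2:**
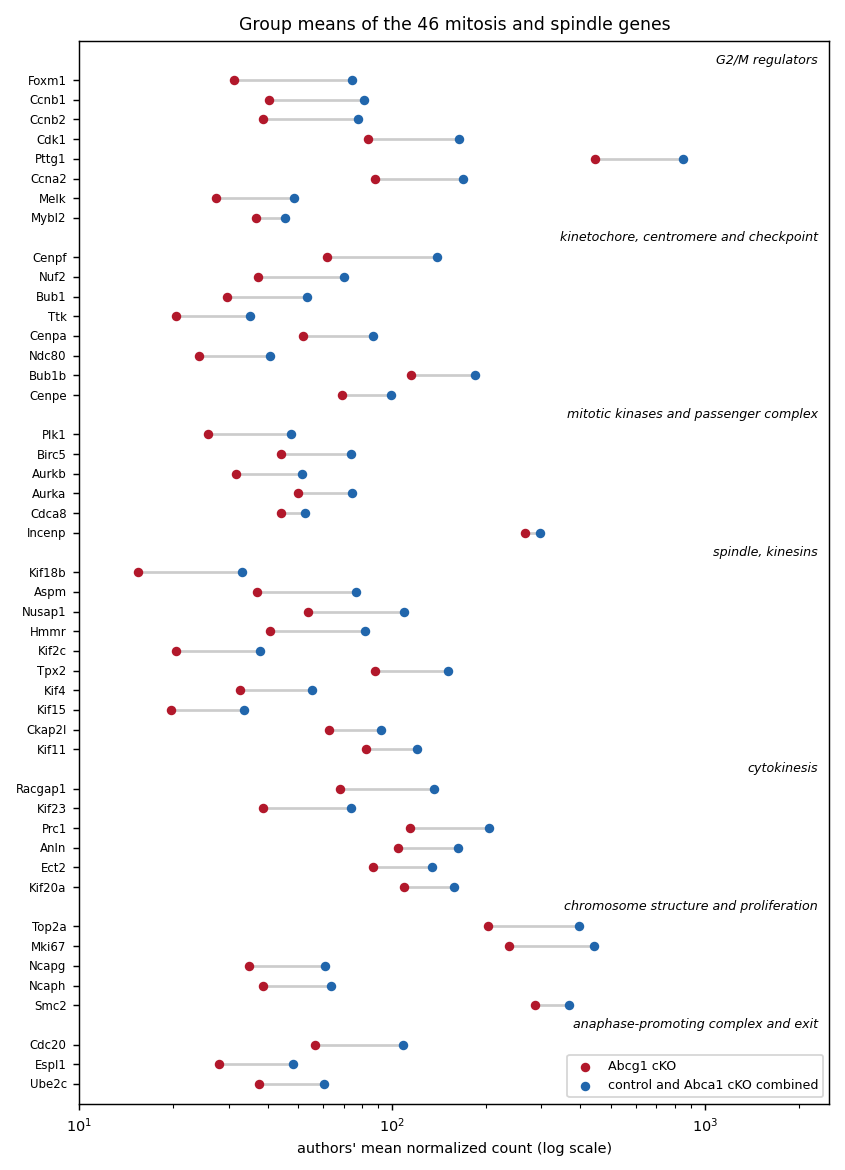
Authors' mean normalized count (x axis, log scale) of each of the 46 genes in Abcg1 cKO (red) and in the combined group of control and Abca1 cKO (blue), grouped by role and ordered by ratio within a role. The red point lies left of the blue in every row, and Incenp and Cdca8 have the shortest distance.

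Of the members grouped by role, the regulators of G2 and mitosis had the lowest median. All 8 were past 1.2-fold, with a median log2 ratio of -0.95. Foxm1, on chromosome 6 from 128362994 to 128375886 of GRCm38, was at 31.3 in Abcg1 cKO adrenals against 74.2 in the combined group, and its log2 ratio of -1.22 was the lowest of all members. Mybl2, which encodes its partner B-MYB, was at 36.9 and 45.6, with a log2 ratio of only -0.30. The mitotic kinase subunit and its cyclins stayed close to each other. Cdk1 was at 83.8 and 164, Ccna2 at 88.5 and 168, Ccnb1 at 40.5 and 81.4, and Ccnb2 at 38.6 and 77.6, so that the 4 log2 ratios lay between -0.99 and -0.92. Melk, a kinase of proliferating cells, was at 27.4 and 48.6 (log2 ratio -0.81). Pttg1, which encodes securin, the inhibitor that keeps separase inactive until anaphase, had the highest level of all members also per length, with means of 445 and 854 (log2 ratio -0.94).

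Kinetochore and checkpoint genes were lower by similar amounts, with a median of -0.74 and all 8 past 1.2-fold. Cenpf, a large protein of the outer kinetochore, was at 61.8 in Abcg1 cKO adrenals against 139 in the combined group, with the second lowest log2 ratio of the members, -1.16. The kinetochore kinesin gene Cenpe was nearest to 0 in this group, at 69.1 and 99.3 (log2 ratio -0.52), and Cenpa, the histone H3 variant of centromeres, was at 51.8 and 86.8. Ndc80 and Nuf2 encode partners in the complex that grips microtubules. They were at 24.1 against 40.6 and at 37.3 against 70.4, with log2 ratios of -0.73 and -0.90. The checkpoint kinase genes Bub1 and Ttk and their relative Bub1b had log2 ratios of -0.83, -0.76 and -0.68, and the means of Bub1b were 115 and 184.

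Among mitotic kinases, Plk1, which acts from mitotic entry to cytokinesis, was at 25.7 in Abcg1 cKO adrenals against 47.6 in the combined group (log2 ratio -0.86). The spindle pole kinase gene Aurka was at 50.02 and 74.5 (log2 ratio -0.57). The chromosomal passenger complex, which corrects faulty attachments, did not differ as a unit. Aurkb, its kinase, was at 31.6 and 51.6, and Birc5, which encodes survivin, at 44.2 and 73.9, with log2 ratios of -0.69 and -0.73. Cdca8, which encodes borealin, was at 44.0 and 52.6, and Incenp, the scaffold, at 266 and 297, with log2 ratios of -0.25 and -0.16. These were the members nearest to 0 and the only ones within 1.2-fold.

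All 10 spindle genes were past 1.2-fold, with a median of -0.81. Kif18b, a kinesin that shortens astral microtubules, was at 15.4 and 33.0, with a log2 ratio of -1.05. Aspm, a spindle pole protein, was at 37.0 and 76.9, Nusap1, which bundles microtubules, at 53.9 and 109, and Hmmr, a partner of TPX2 at the poles, at 40.8 and 81.9, with log2 ratios between -1.04 and -0.99. Tpx2, an activator of Aurora A, was at 88.3 and 151 (log2 ratio -0.76). The kinesins Kif2c, Kif4 and Kif15 had log2 ratios of -0.86, -0.76 and -0.75. Kif11, the motor that pushes the spindle poles apart, and Ckap2l, another spindle protein, were nearer to 0 at -0.54 and -0.55.

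Cytokinesis genes had a median of -0.73, and all 6 were past 1.2-fold. Racgap1 and Kif23 form centralspindlin, the complex of the midzone. They were at 68.3 against 137 and at 38.6 against 73.9, with log2 ratios of -0.99 and -0.92. Ect2, the exchange factor that centralspindlin recruits to switch on RhoA, was at 87.1 and 135 (log2 ratio -0.62). Prc1, which bundles midzone microtubules, was at 114 and 204 (log2 ratio -0.83). Anln, an actin-binding protein of the contractile ring, had a log2 ratio of -0.64 and the midzone kinesin gene Kif20a one of -0.52.

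The proliferation marker Mki67 was at 237 in Abcg1 cKO adrenals against 443 in the combined group, and Top2a, the topoisomerase that untangles sister chromosomes, at 202 and 395, with log2 ratios of -0.90 and -0.96. Condensin subunits differed from each other. Ncapg and Ncaph were at 34.8 against 61.1 and at 38.7 against 63.6 (log2 ratios -0.79 and -0.70), whereas Smc2, which is part of both condensins, was at 286 and 368 (log2 ratio -0.36). At the end of mitosis, the APC/C activator Cdc20 was at 56.5 and 109 (log2 ratio -0.93), its ubiquitin-conjugating enzyme Ube2c at 37.6 and 60.5 (log2 ratio -0.67), and the cohesin-cutting protease separase, Espl1, at 28.1 and 48.4 (log2 ratio -0.76).

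Exons of 13 members overlap exons of another annotated gene, in most cases on the opposite strand. The library kit keeps strand, but the sources used here do not say whether the counting did. Kif20a shared the most, 1271 bases or 29.3% of its exon length, with the APC/C subunit gene Cdc23 (log2 ratio 0.09), and Ube2c shared 22.8% with Tnnc2. Without strand, reads of such pairs could not be told apart.

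The members were then set beside other subunits and partners of the same machines, a grouping made after the values were seen. The partner genes come from lists of other cell cycle genes. In the APC/C, 14 genes, the core subunits and the co-activator Fzr1, had log2 ratios from -0.31 to 0.09, with a median of -0.016, while Cdc20 and Ube2c were at -0.93 and -0.67. The 5 cohesin genes Smc1a, Smc3, Rad21, Stag1 and Stag2 lay between -0.09 and 0.08, while Pttg1 and Espl1, which control and carry out the cutting of cohesin, were at -0.94 and -0.76. In the checkpoint, Bub3 was at 1855 and 1859 (log2 ratio -0.0026) and Mad1l1 had a log2 ratio of -0.11, while Mad2l1 was at 147 and 212 (log2 ratio -0.53). The remaining subunits of the NDC80 complex, Spc24 and Spc25, were lower together with Ndc80 and Nuf2, at -0.53 and -0.75. In condensin, Smc4, Ncapd2 and Ncapg2 lay at -0.27, -0.40 and -0.41, and the CDK1 subunits Cks1b and Cks2 at -0.43 and -0.34. The MuvB genes Lin9, Lin37, Lin52, Lin54 and Rbbp4 were between -0.26 and 0.11, and of their partners Foxm1 lay at -1.22 but Mybl2, at -0.30, close to the lowest of them, Lin9.

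**Figure D3:**
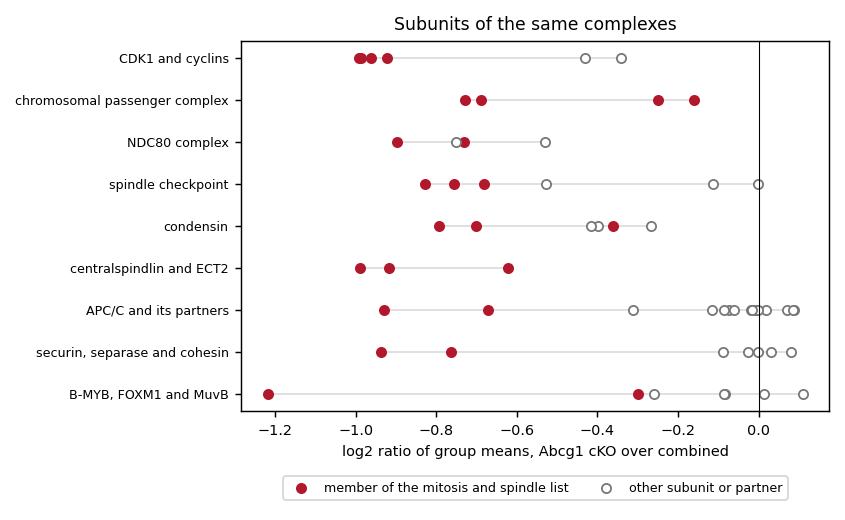
Log2 ratio of group means (x axis, Abcg1 cKO over the combined group) of the subunits and partners of 9 mitotic machines, 1 point per gene. Filled red points are mitosis and spindle genes of the list and open points other subunits. In the APC/C and cohesin rows the open points cluster near 0, and the filled points lie between -0.94 and -0.67.

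Outside the list, 65 further mitosis genes were measured and 63 had a mean of 10 or more. Of these 62 had a lower mean in Abcg1 cKO, 56 were past 1.2-fold lower and none was past 1.2-fold higher, and the median log2 ratio was -0.70. Of the 14238 genes other than members, 11.7% were past 1.2-fold lower and 10.6% higher. Cdca5, which encodes sororin, a protector of cohesin, was at 10.5 and 27.7 (log2 ratio -1.32), and Fam83d, a spindle protein, at 6.32 and 17.2 (log2 ratio -1.31). Psrc1, a microtubule regulator, and Neil3, a DNA glycosylase, both had a log2 ratio of -1.29. At means this low, counting error weighs most on a ratio.

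DNA replication genes, which act earlier in the cycle, were lower by less. Their median was -0.26, and 17 of 35 with a mean of 10 or more were past 1.2-fold lower and none past 1.2-fold higher. The shares over the 14238 genes other than members were 11.7% and 10.6%. Rrm2 and Tk1, enzymes of nucleotide supply, were at 96.4 against 190.1 and 48.1 against 87.8 (log2 ratios -0.97 and -0.86). Chaf1b, a histone chaperone subunit, was at -0.88 and Uhrf1, a maintenance factor of DNA methylation, at -0.69. Whether the difference between the mitosis and replication lists exceeds the spread between animals was not tested.

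G1 cyclins and E2F factors had a median of -0.04, with 15 of 19 within 1.2-fold. E2f7 and E2f8, repressors that are themselves switched on late in G1, had log2 ratios of -0.62 and -0.68, Ccne2 one of -0.42 and Ccne1 one of 0.27. MuvB and pocket protein genes had a median of -0.08 and 6 of 7 within 1.2-fold, with Rbl1 at -0.34, Lin9 at -0.26, Rbl2 at 0.17 and Lin52 at 0.11. Inhibitors and brakes of the cycle split into both directions. Of 15 genes 4 were past 1.2-fold higher and 3 past 1.2-fold lower, with a median of 0.12. Over the 14238 genes other than members, 10.6% were past 1.2-fold higher and 11.7% lower. Btg2, an antiproliferative gene, was at 2721 in Abcg1 cKO adrenals against 1638 in the combined group (log2 ratio 0.73), and the CDK inhibitor gene Cdkn2b at 133 and 94.0 (log2 ratio 0.50). Fbxo5, an APC/C inhibitor that dividing cells make, and Pkmyt1, a kinase that holds CDK1 inactive, were lower, at -0.69 and -0.51. Chromosome and APC/C genes that cells use at all times had a median of -0.0056, with 26 of 27 within 1.2-fold. The genes farthest from 0 there were Anapc10 at -0.31, Dynll1 at 0.25, Nudc at 0.16 and Ckap5 at 0.13.

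**Figure D4:**
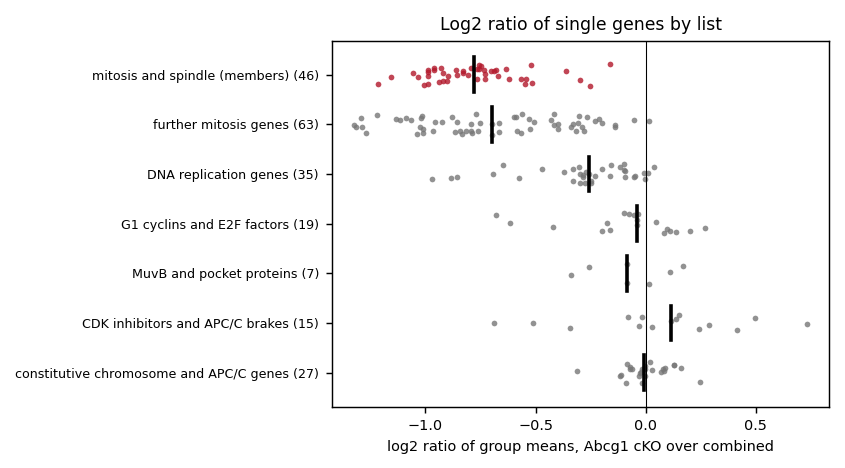
Log2 ratio of group means (x axis, Abcg1 cKO over the combined group) of single genes with a mean of 10 or more, by list, with the number of genes in brackets. Points are genes, placed vertically at random within a row, and black bars are medians. The medians are -0.78 for the members, -0.70 for further mitosis genes, -0.26 for DNA replication genes and between -0.08 and 0.12 for the other lists.

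Markers of several cell types also differed between the group means. Beside the counts below, 11.7% of the 14238 genes other than members were past 1.2-fold lower and 10.6% higher. Cortical progenitor and outer-cortex signalling genes were lower in 3 of 4 cases by more than 1.2-fold. Shh, which marks cells beneath the capsule that feed the cortex, was at 308 and 471 (log2 ratio -0.61), Lef1 at -0.59 and Axin2 at -0.43, whereas Wnt4 was at 0.0034. Their summed means were 5879 in Abcg1 cKO adrenals against 6268 in the combined group, but Wnt4, at 4946 and 4934, makes up most of both sums. Zona glomerulosa markers were all within 1.2-fold (median -0.13, sums 13324 and 14862). They differed in direction, with Cyp11b2 at 0.14, Agtr1b at -0.13 and Dab2 at -0.25. Dab2, at 9484 and 11308, makes up most of both sums. The 3 zona fasciculata markers were all past 1.2-fold higher (median 0.61, sum at 132% of the combined group), as were 5 of 8 steroidogenic cortex markers (median 0.30, sum at 115%) and both X-zone markers (median 0.38, sum at 132%).

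Lymphocyte markers were also lower. Of 10 measured, 7 had a mean of 10 or more, 5 of these were past 1.2-fold lower and none was past 1.2-fold higher, with a median of -0.59. The shares over all genes other than members were 11.7% lower and 10.6% higher. Summed over all 10 they were at 468 and 590.1, or 79.3%, beside 59.0% for the summed members. Without Ptprc, which other blood cells also express and which makes up most of that sum, the remaining 9 were at 87.8 and 153, or 57.6%, a split made after the values were seen. Each of these 9 had a lower mean in Abcg1 cKO and none was at 0. The B cell marker Cd79a was farthest from 0, at 9.09 and 21.6 (log2 ratio -1.16), followed by Cd4 at -0.93, and the T cell markers Cd8a at -0.53 and Cd3g at 14.7 and 17.6 (log2 ratio -0.24) were nearer to it. Cd3e, a defining T cell marker, was under a mean of 10, at 4.47 and 9.37. Macrophage and myeloid, endothelial, capsule and stroma, and Schwann and sustentacular markers had medians of -0.03, -0.10, 0.04 and 0.0044 and sums at 96.0%, 93.0%, 103% and 97.7% of the combined group. In these lists Gli1, a Hedgehog target of capsule cells, at 74.1 and 101 (log2 ratio -0.44), and the myeloid marker Cd68, at 539 and 665 (log2 ratio -0.30), were past 1.2-fold lower, and S100b was past 1.2-fold higher at 0.27. All 7 medulla markers were past 1.2-fold higher (median 0.42, sums 177213 and 130242), and so were all 5 adipocyte markers (median 1.18, sums 16097 and 8106). Erythroid markers were measured in part, with the 4 haemoglobin genes listed at 0 in both groups, Alas2 at -0.20 and Tfrc, which dividing cells also express, at 0.62. The part that differences in cell makeup have in the lower mitotic transcripts was not tested.

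**Figure D5:**
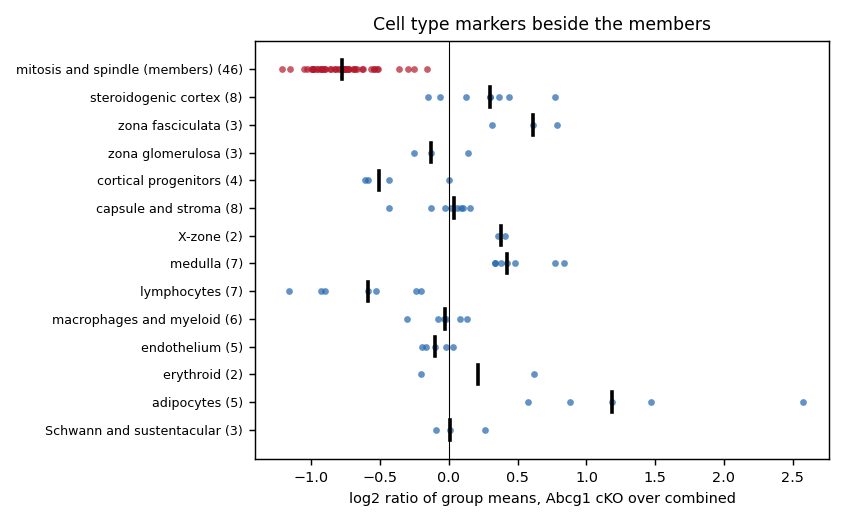
Log2 ratio of group means (x axis, Abcg1 cKO over the combined group) of the 46 members (red) and of cell type markers with a mean of 10 or more (blue), with the number of genes in brackets and black bars for medians. Progenitor and lymphocyte markers lie mostly below 0, with medians of -0.51 and -0.59, and medulla and adipocyte markers lie above it, with medians of 0.42 and 1.18.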

How the data were processed

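Per the study's methods and the submitters' processing notes, reads were demultiplexed with bcl2fastq 2.20.0.422, trimmed with cutadapt 4.0, checked with FastQC 0.11.9, filtered with BBTools, mapped to mm10 with STAR 2.7.10a and counted per gene with HTSeq 0.13.5 if uniquely mapped, and counts were normalized and compared with DESeq2 1.38.3. The signal used here is a group's mean of normalized counts, as deposited by the authors. Of the table, 12 columns of single libraries could be tied to no sample and were left out, as were the deposited fold changes, their errors and p-values, which hold the study's own comparison. The planned tests between groups therefore were not run, and ratios of 2 means take their place. Depth per library is unknown, which leaves the precision of low means unknown. The share of genes past a threshold was taken over the genes that are no members. Ratios used a pseudocount of 1, a minimum mean of 10 and a 1.2-fold threshold, in Python 3.11.15 with pandas 2.3.3. The code for ratios was checked on simulated data with known ratios and an assumed spread. That check does not measure the spread between these animals. Alternatives were other pseudocounts, filters, folds and a centring. Exon lengths and overlaps came from GENCODE for GRCm38, positions and promoters from RefSeq for the same build. All members were named, and of each other cell cycle list the 4 genes with the largest absolute log2 ratio among those with a mean of 10 or more in either group. Complexes, cell type markers and further genes were named after their values were seen. Members and lists were chosen with earlier results of these data known.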

Additional observations from a re-analysis of the deposited data

How the results depend on the processing

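No paired analysis was possible because no column of a single library could be matched to a sample, and for the same reason leaving out replicates, a replicate block, count tests and TMM scaling were not run. No pseudocount, filter or threshold can turn the direction of a ratio of 2 fixed means, so only sizes and counts bear on the processing. Past 1.2-fold were 44 members at a pseudocount of 0.1 and 43 at 10, with medians of -0.80 and -0.65. Over a mean of 50 or more, 30 of 31 members were past 1.2-fold (median -0.90). After centring on the median of all genes 44 were (median -0.78). At 2-fold 5 members were lower at a pseudocount of 1, and, in alternatives added after the data were seen, 9 with none, 8 at 0.1 and 2 at 10. Counts over all genes moved more, but the filters also change how many genes are counted, and a higher fold lowers any count. With the settings used in the text, 1707 were lower and 1510 higher of 14284 genes. With no filter 3587 were lower and 2629 higher of 24421. Over a mean of 50 or more, 1007 were lower and 1120 higher of 12269. Over a mean of 20 to 700, a range added after the data were seen, 1312 were lower and 919 higher of 7906. Of the 14284 genes, 443 were lower and 385 higher at 1.5-fold, and 115 lower and 112 higher at 2-fold. None of these alternatives uses the spread between animals, since single libraries and the authors' errors and p-values were left out.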
